A study of Mus musculus with 22 samples.

Results

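Transcripts of adult hemoglobin and of the heme enzyme Alas2 were followed through mouse lumbar spinal cord as a sign of blood left in the tissue. The genes were taken by symbol. Of 5 named, Hba-a1, Hba-a2, Hbb-bs, Hbb-bt and Alas2, 4 were listed among the 17306 genes of the table, and Hbb-bt was not among the genes analysed here. All mice were wildtype C57BL6J, 12 to 14 weeks old at collection, and every mouse, including the controls, had received 1 mg of sodium iodoacetate (MIA) in the knee joint, an inhibitor of glycolysis that damages cartilage and models the joint pain of osteoarthritis. SAFit2, a selective inhibitor of the stress regulator FKBP51, was given at 100 mg/kg in a vesicular phospholipid gel (VPG), and Vehicle mice received the gel alone. Early gels were given on days -3 and 4 around MIA in the series description, where the sample labels read days 3 and 4, and late gels on days 20 and 27. Cord of segments L4-L6 was collected on day 30. The methods describe quadrants dissected on the side of the injured knee. SAFit2 groups had 5 libraries each and Vehicle groups 6 each, at either timing. For the 5 drug-treated early samples, SAFit1 stands in the title and SAFit2 in the treatment label. The batch label was the same as the timing of the gel, so that timing and batch cannot be told apart. There was no group without MIA. The study's supplement gives male mice for this experiment, and its methods count each animal as a unit. Whether the mice were perfused is not given in the sources used here.

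The hemoglobin of adult red cells is built from alpha chains, encoded by the neighbouring genes Hba-a1 and Hba-a2, and beta chains, encoded in this mouse strain by Hbb-bs and Hbb-bt. Alas2 makes the erythroid aminolevulinate synthase, which carries out the first and limiting step of heme synthesis in red cell precursors. Mature mouse red cells have no nucleus, and young ones, the reticulocytes, still carry globin mRNA. Globin mRNA is also known at low level from some brain neurons and glia, so that in whole tissue its source is not given by the transcript itself.

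In each pair of chains the coding sequences are almost the same, which decides how far the reads of each gene can be told apart. Hba-a1 and Hba-a2 share 429 coding bases with 1 difference, C381T, counted from 1 at the A of the start codon with the base of Hba-a1 first. The identity was 99.8%. The stretches below run from coding base 351 to 410 of the GRCm38 transcripts and carry the differing base in capitals.
Hba-a1: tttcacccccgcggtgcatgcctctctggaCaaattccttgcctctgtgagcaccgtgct
Hba-a2: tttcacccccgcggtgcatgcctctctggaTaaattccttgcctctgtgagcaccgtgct
Hbb-bs and Hbb-bt share 444 coding bases, again with 1 difference, C417T, and 99.8% identity, shown in capitals from coding base 385 to 444.
Hbb-bs: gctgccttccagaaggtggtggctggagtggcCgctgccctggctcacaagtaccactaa
Hbb-bt: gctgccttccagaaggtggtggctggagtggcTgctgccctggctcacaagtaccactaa
Of all stretches of 75 bases in the Hba-a1 transcript, 389 (62.2%) also occur in Hba-a2, where they make 81% of 480. For Hbb-bs, 356 of 554 (64.3%) also occur in Hbb-bt. The reads were paired, 75 bases at each end, so the mate can add to this. How reads that fit several genes were counted is not given in the sources used here, and the split of reads between Hba-a1 and Hba-a2, or between Hbb-bs and its listed or unlisted neighbours, is uncertain. The table also lists Hbb-b1, an older beta globin symbol. Its Entrez number, 15129, has no gene in the GENCODE M21 annotation of GRCm38 and no place at the beta globin locus in RefSeq. Hbb-b1 was not chosen as one of the 5 genes. Its values are given beside them, and it is not counted with them.

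Hba-a1 lies at chr11:32283511-32284465 and Hba-a2 at chr11:32296489-32297298, both on the plus strand of GRCm38 with 3 exons. Hbb-bs lies at chr7:103826534-103828096 on the minus strand, also with 3 exons. Alas2 lies at chrX:150547375-150570638 on the plus strand with 11 exons. In RefSeq, the 150 bases before the start of transcription of all 4 listed genes held words known from red cell promoters. Both strands were searched. The GATA factor words were AGATAA, also written with an initial T as TGATAA, beside AGATAG, whose form with an initial T is TGATAG. The others were the word CCAAT, the word CCACCC, and TATA-like words, namely TATAAA, then also CATAAA, and finally ATATAA. The first and the last of these TATA-like words can overlap. The following stretches show the part of an alpha globin promoter and of that of Alas2 that lies upstream of every annotated exon, with the words in capitals.
Hba-a2: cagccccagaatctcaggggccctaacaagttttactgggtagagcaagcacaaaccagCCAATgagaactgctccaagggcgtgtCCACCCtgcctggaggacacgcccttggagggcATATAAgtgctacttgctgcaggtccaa
Alas2: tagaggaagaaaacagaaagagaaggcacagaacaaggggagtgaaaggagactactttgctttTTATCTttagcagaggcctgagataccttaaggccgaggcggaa
The Hba-a2 stretch is chr11:32296342-32296488 and the Alas2 stretch chrX:150547267-150547374, both on the plus strand of GRCm38.p6. In Alas2 the capitals are AGATAA read on the minus strand, 86 to 81 bases before the RefSeq start. Hba-a1 and Hba-a2 carried the words CCAAT, then CCACCC, and then ATATAA in the same order, starting 88, 61 and 28 bases before the start in Hba-a1 and 91, 64 and 31 bases before it in Hba-a2. Hbb-bs carried CCAAT at 76 and ATATAA at 30 bases. Alas2 had no CCAAT or TATA-like word in this window of 150 bases and 3 overlapping CCACCC words on the minus strand, 40 to 25 bases before the start. The printed Alas2 stretch of 108 bases stops before these words, at the gene start in GENCODE. Of 32851 RefSeq promoters in windows of this length, 24.5% held CCAAT, 19.7% CCACCC, 16% a GATA word and 15.5% a TATA-like word. These matches describe the letters only.

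The 22 libraries held 11352989 to 24433349 reads on genes, and the globins were a small share of each. The 3 listed globins together took 0.0298% of reads in the lowest library, Late SAFit2 replicate 2, and 0.0938% in the highest, Late Vehicle replicate 3. Genes of nervous tissue were high, with Mbp (myelin) at a mean of 13.08 log2 CPM and Snap25 (synapses) at 11.54. The Hox genes chosen for the cord, Hoxc10, Hoxa10 and Hoxd10, had means of 6.64, 5.94 and 5.57. Other library measures varied widely. The neuronal small RNA gene Bc1 took 0.623 to 16.5% of reads and the mitochondrially encoded genes 6.82 to 18.3%. The GC slope of a library, a sign of composition that differs between libraries, was taken after subtracting each gene's mean log2 CPM over the 22 libraries. The remainder was regressed on the GC content of the transcript, so the slope is relative to the average library. It ranged from -0.48 to 0.49 per 10% of GC. The group medians were 0.07 in Early SAFit2, 0.0070 in Early Vehicle, -0.33 in Late SAFit2 and 0.30 in Late Vehicle.

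Per kb of transcript, Hba-a2 was the most abundant of the 4 genes with a mean of 448 ± 136 CPM per kb (SD, n = 22 libraries), followed by Hba-a1 with 338 ± 105. Hbb-bs stood at 131 ± 40.9 and Alas2 at 3.07 ± 1.17 CPM per kb. The order of Hba-a1 and Hba-a2 rests on a transcript length of 699 bases for the first and 554 for the second, and their reads were nearly equal in number. Reads per library were 1999 to 7863 for Hba-a1, 1785 to 8075 for Hba-a2, 557 to 2689 for Hbb-bs and 39 to 240 for Alas2. Hbb-b1 had 1318 to 4887.

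Among the alpha globins, Hba-a1 read 7.07, 8.16, 7.79, 7.53 and 7.75 log2 CPM in the 5 Early SAFit2 libraries, and its lowest, median and highest Early Vehicle values were 7.37, 7.54 and 7.97. In the Late SAFit2 libraries, Hba-a1 read 8.51, 7.21, 8.09, 7.74 and 7.89, and in Late Vehicle 7.60, 8.24 and 8.61 from lowest to highest. The early groups lay over each other, and the single highest library was in Late Vehicle. Hba-a2 read 7.26, 8.18, 7.80, 7.63 and 7.56 log2 CPM in Early SAFit2, and 7.42, 7.66 and 7.90 from lowest to highest in Early Vehicle. In Late SAFit2 it read 8.62, 7.05, 8.27, 7.98 and 8.16, and in Late Vehicle 7.71, 8.28 and 8.61. Late SAFit2 thus held both the highest and the lowest Hba-a2 value of all 22 libraries, in its replicates 1 and 2.

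The beta globin Hbb-bs read 5.92, 6.61, 6.23, 5.98 and 6.41 log2 CPM in Early SAFit2, and 5.67, 6.01 and 6.47 from lowest to highest in Early Vehicle. In Late SAFit2 it read 7.20, 5.86, 6.53, 6.01 and 5.97, and in Late Vehicle 6.34, 6.64 and 6.98. In Late SAFit2, 3 of 5 libraries lay below every Late Vehicle library and 1 lay above them all. Hbb-b1 read 6.997, 7.29, 6.65, 6.65 and 7.21 log2 CPM in Early SAFit2, and 6.10, 6.87 and 7.21 from lowest to highest in Early Vehicle. In Late SAFit2 it read 8.08, 6.68, 7.76, 7.42 and 7.21, and in Late Vehicle 7.04, 7.42 and 7.52. For Hbb-b1, 5 of 6 Late Vehicle libraries lay above all Early Vehicle libraries.

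Alas2 was low in every library. In Early SAFit2 it read 2.24, 2.41, 2.17, 2.70 and 2.51 log2 CPM, and in Early Vehicle 1.62, 2.25 and 2.97 from lowest to highest. In Late SAFit2 it read 3.75, 2.19, 3.42, 2.77 and 2.17, and in Late Vehicle 2.32, 2.80 and 2.97. Replicates 1 and 3 of Late SAFit2 exceeded every Late Vehicle library, and replicates 2 and 5 lay below them all. In whole tissue, more red cells and more of the RNA per cell cannot be told apart.

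**Figure D1:**
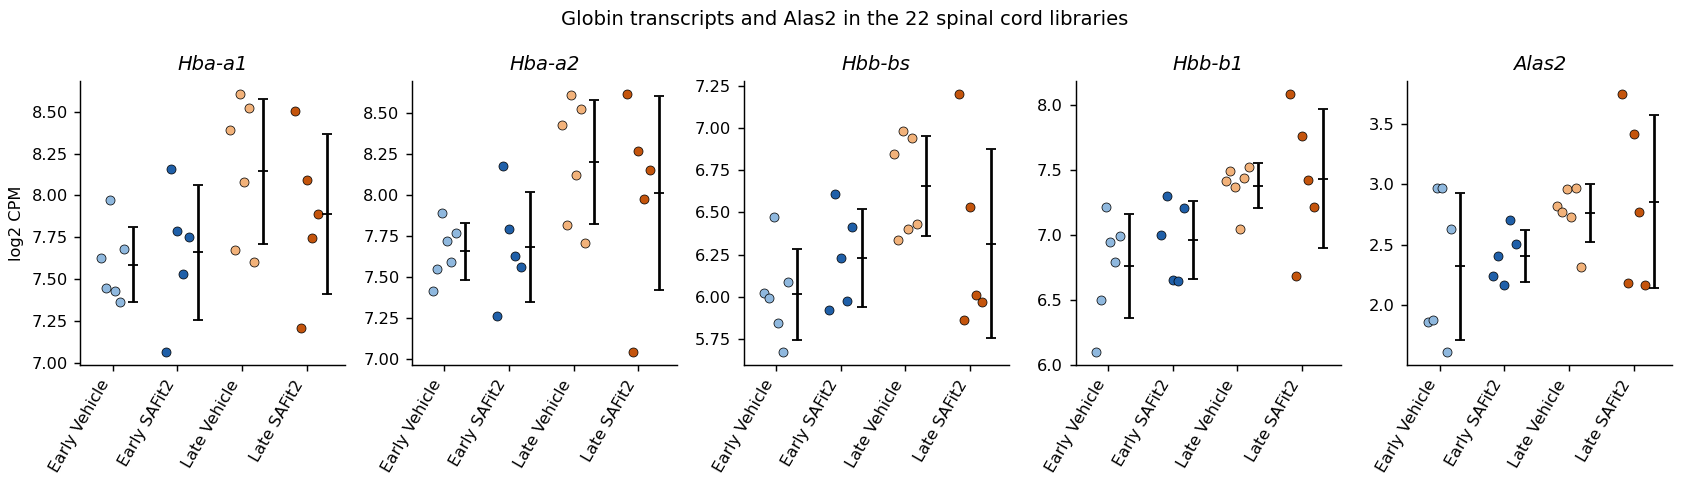
log2 CPM of Hba-a1, Hba-a2, Hbb-bs, Hbb-b1 and Alas2 in each of the 22 libraries, with 1 panel per gene, 1 point per library and the mean ± SD of each group. Late SAFit2 spans the widest range for Hba-a2, from 7.05 to 8.62, and the groups overlap in every panel.

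Within groups the SD between libraries was 0.39 on the log2 scale for Hba-a1 and Hba-a2, 0.36 for Hbb-bs, 0.37 for Hbb-b1 and 0.49 for Alas2. Counting error, only a part of any spread between animals, would by itself give an SD of 0.024 for Hba-a1 and Hba-a2, 0.041 for Hbb-bs, 0.030 for Hbb-b1 and 0.15 for Alas2. As a description of the background, the median within-group SD was 0.21 over the 3189 genes with a mean of at least 6 log2 CPM, and 0.32 over all 16765 genes tested. The highest library exceeded the lowest 2.91-fold for Hba-a1, 2.98-fold for Hba-a2, 2.88-fold for Hbb-bs, 3.96-fold for Hbb-b1 and 4.50-fold for Alas2, in CPM.

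Whether SAFit2 changed the blood transcripts was asked within each timing, since the timings are separate batches. A gene was called at a limma adjusted p under 0.05 over the 16765 genes tested and a change of at least 1.2-fold. All 4 listed genes and Hbb-b1 were tested. After early gels none of the 4 was called, against 0% of all genes tested, with 416 genes (2.48%) at an unadjusted p under 0.05. Hba-a1 averaged 7.66 ± 0.40 log2 CPM with SAFit2 (SD, n = 5) and 7.59 ± 0.22 with Vehicle (n = 6). Its difference, SAFit2 minus Vehicle, was 0.07 on the log2 scale with a 95% interval of -0.35 to 0.50 (limma adjusted p = 1.00, two-sided exact permutation p = 0.719). The differences were 0.03 (-0.40 to 0.45) for Hba-a2, 0.21 (-0.19 to 0.62) for Hbb-bs, 0.09 (-0.49 to 0.67) for Alas2 and 0.20 (-0.20 to 0.61) for Hbb-b1. Each interval includes 0 and on at least one side reaches a change of over 1.2-fold.

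After late gels the globins were lower on average in SAFit2, but within the spread between libraries. None of the 4 genes was called, where 2021 of all genes tested (12.1%) were, 894 higher and 1127 lower. That background was itself not stable. It was 0 with GC content and length corrected or with only the libraries of the pair, 62 without the variance trend, 876 with limma voom and 6381 with library quality weights, and 2434 higher and 585 lower with library sizes without Bc1 and mitochondrial genes. It was 1 without Late SAFit2 replicate 2 or 5 or Late Vehicle replicate 1, 3, 4 or 5, 8 without Late SAFit2 replicate 4, and 4971 without Late Vehicle replicate 6. Hbb-bs averaged 6.31 ± 0.56 log2 CPM with SAFit2 (SD, n = 5) and 6.66 ± 0.30 with Vehicle (n = 6), a difference of -0.34 with an interval of -0.74 to 0.06 (limma adjusted p = 0.214, exact permutation p = 0.210). For Hba-a1 the difference was -0.26 (-0.68 to 0.17, adjusted p = 0.386, exact permutation p = 0.355) and for Hba-a2 -0.19 (-0.61 to 0.24, adjusted p = 0.537, exact permutation p = 0.567). Alas2 differed by 0.09 (-0.49 to 0.68) and Hbb-b1 by 0.05 (-0.35 to 0.46). The median of the 4 genes was -0.22, beside -0.05 over all genes tested. Late SAFit2 replicate 1, the library with the highest Hba-a2, Hbb-bs, Hbb-b1 and Alas2, decided the call of Hbb-bs. Without it the difference was -0.56 (adjusted p = 0.0260) and Hbb-bs was called lower. In that fit 9 of the 10 late calls among the gene lists below also held, and nothing particular to Hbb-bs is read from its call. Without Late SAFit2 replicate 2 the Hba-a2 difference turned to 0.05. With GC content and length corrected, the Hba-a1 difference was 0.06 and that of Hba-a2 0.09, both turned in sign.

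The difference between the late and the early SAFit2 effect was -0.56 for Hbb-bs (-1.12 to 0.01, limma adjusted p = 0.209, exact permutation p = 0.0841). It was -0.33 for Hba-a1, -0.22 for Hba-a2, 0.01 for Alas2 and -0.15 for Hbb-b1. Averaged over both timings, the SAFit2 effect was between -0.09 and 0.09 on the log2 scale for the 4 genes. None was called in either comparison, where 0% of genes tested were, with 4167 genes (24.9%) at an unadjusted p under 0.05 in the first and 2215 (13.2%) in the second.

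The clearest difference lay between the Vehicle groups, which differ in gel days and in batch. Hbb-bs was higher in Late Vehicle, at 6.66 ± 0.30 log2 CPM, than in Early Vehicle, at 6.02 ± 0.27 (SD, n = 6 each). The difference was 0.64 (0.26 to 1.02), a ratio of 1.56 (limma adjusted p = 0.030, exact permutation p = 0.00866), and 3 of 6 Late Vehicle libraries lay above every Early Vehicle library. Of the 4 listed genes, this 1 was called, where 9.11% of all genes tested were called and 3.29% were called higher. Hba-a1 differed by 0.56, a ratio of 1.47 (0.15 to 0.96, adjusted p = 0.0740, exact permutation p = 0.0260) and Hba-a2 by 0.55, a ratio of 1.46 (0.14 to 0.95, adjusted p = 0.0793, exact permutation p = 0.0152), both short of the adjusted threshold. For each alpha globin 4 of 6 Late Vehicle libraries lay above all Early Vehicle libraries. Alas2 differed by 0.44 (-0.11 to 0.99, adjusted p = 0.330, exact permutation p = 0.134). Hbb-b1 was higher by 0.62 (0.23 to 1.01, adjusted p = 0.037, exact permutation p = 0.00433). No member separated the groups completely, as 4.92% of all genes tested did. Leaving out single libraries moved the call of Hbb-bs across the threshold. It was lost without Early Vehicle replicate 2, 4 or 5 or Late Vehicle replicate 1, 3 or 5, with differences of 0.57 to 0.64 and adjusted p of 0.0517 to 0.0754. The call of Hbb-b1 was lost without Early Vehicle 1, 2 or 5 or Late Vehicle 1, 2, 3 or 5. Hba-a1 was called without Late Vehicle replicate 2 (adjusted p = 0.0416) or 6 (adjusted p = 0.0237), and Hba-a2 without Late SAFit2 replicate 2 (adjusted p = 0.0292) or Late Vehicle replicate 6 (adjusted p = 0.0293). The processing moved these calls in both directions. Hbb-bs lost its call without the variance trend (0.64, adjusted p = 0.0588) and with quantile normalization (0.58, adjusted p = 0.0541). With quantile normalization the differences of Hba-a1 and Hba-a2 were 0.37 and 0.36, and with the GC slope of the library as a covariate 0.37 and 0.39. Hbb-b1 lost its call without the variance trend (adjusted p = 0.0702), with quantile normalization (0.0956), with library sizes without Bc1 and mitochondrial genes (0.0572) and with the replicate block (0.0538). With GC content and length corrected, all 3 globins were called (Hba-a1 0.52, Hba-a2 0.53 and Hbb-bs 0.70), as were 3012 of 16213 genes in all.

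**Figure D2:**
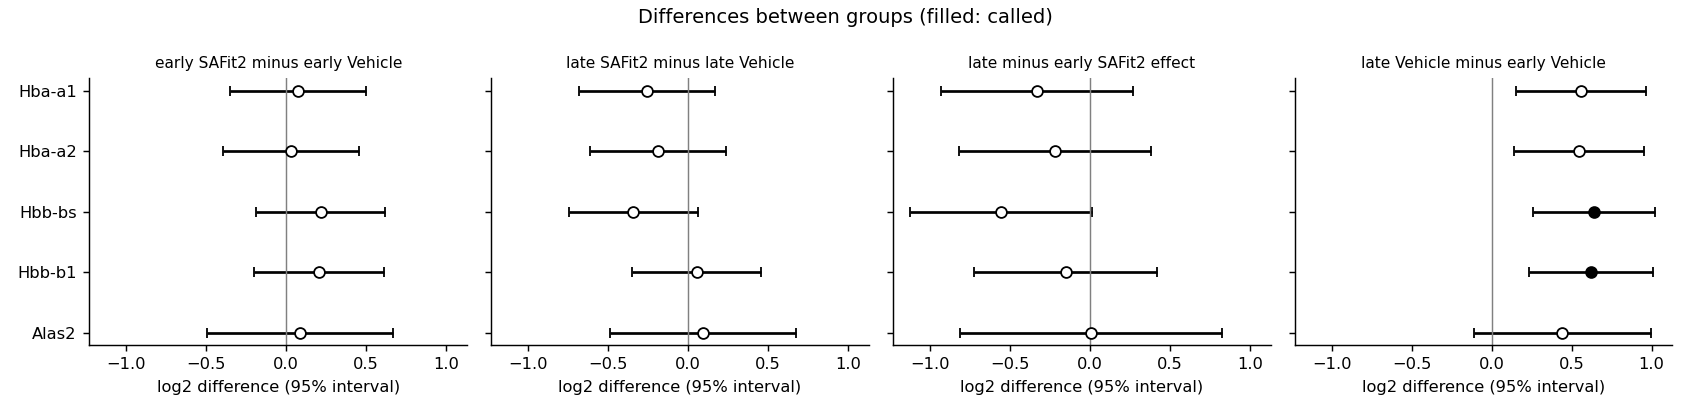
Differences in log2 CPM with 95% intervals for each gene in 4 comparisons, fitted with limma, where filled points mark calls. The intervals of early and late SAFit2 against Vehicle include 0 for every gene, and the called points are Hbb-bs at 0.64 and Hbb-b1 at 0.62 in Late against Early Vehicle.

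The globins rose and fell together from library to library. Over the 22 libraries Hba-a1 followed Hba-a2 with Pearson r = 0.95 and Spearman rho = 0.91, and followed Hbb-bs with r = 0.91 and rho = 0.88. Hba-a2 and Hbb-bs had r = 0.82 and rho = 0.76. For these 3 pairs the permutation p of r was 1e-05, the smallest that 100000 resamples can give, and 2e-05 after adjustment over the 6 pairs tested. All 3 pairs held without the 2 libraries farthest from the median (r = 0.93, 0.87 and 0.74), within the early batch (0.84, 0.87 and 0.64) and within the late batch (0.97, 0.88 and 0.80). Reads that fit both alpha genes would add to their correlation, and the part of such reads was not tested. Hbb-bs has 0 stretches of 75 bases in common with either alpha transcript.

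Alas2, a transcript of red cell precursors with 0 stretches of 75 bases in common with the 3 globins, followed them more loosely. Its r was 0.64 with Hba-a1 (rho = 0.57, adjusted permutation p of r 0.00132), 0.67 with Hba-a2 (rho = 0.68, adjusted p 0.000684) and 0.69 with Hbb-bs (rho = 0.58, adjusted p 0.000555). Without the 2 farthest libraries the r were 0.62, 0.58 and 0.56. Within the late batch they were 0.68, 0.69 and 0.75, and within the early batch 0.32, 0.41 and 0.39, over 11 libraries each. At 39 to 240 reads, counting error was a larger part of the spread of Alas2 than of the globins. After removal of the group means the lowest r of the 6 pairs was 0.57, between Hba-a1 and Alas2. All 6 kept an adjusted permutation p under 0.05. Without the 2 farthest libraries, Alas2 then had r = 0.51 with Hba-a1, 0.42 with Hba-a2 and 0.49 with Hbb-bs. Their unadjusted permutation p were 0.0215, 0.0640 and 0.0283. With GC content and length corrected, the r without the 2 farthest libraries were 0.67, 0.65 and 0.37 (unadjusted permutation p 0.00108, 0.00165 and 0.115). Hbb-b1 had r = 0.61 with Hba-a1, 0.71 with Hba-a2, 0.70 with Hbb-bs and 0.76 with Alas2 (rho of 0.61, 0.72, 0.69 and 0.67), the highest adjusted permutation p of the 4 pairs being 0.0024.

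**Figure D3:**
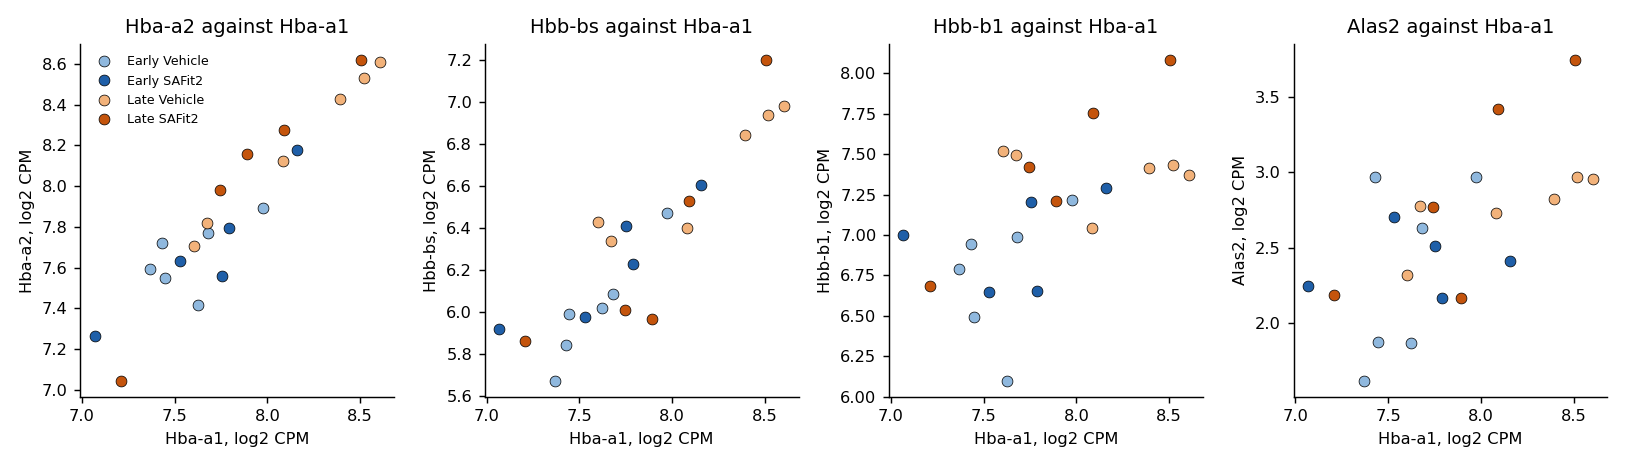
log2 CPM of Hba-a2, Hbb-bs, Hbb-b1 and Alas2 against that of Hba-a1, with 1 point per library coloured by group. Hba-a2 lies close to a line with Hba-a1 (r = 0.95), and Alas2 scatters more (r = 0.64).

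The ratios among Hba-a1, Hba-a2 and Hbb-bs had a smaller spread within groups than the levels of these genes. Hba-a1 over Hba-a2 was 0.953 as a geometric mean of read ratios and ranged from 0.819 to 1.16, with a within-group SD of 0.15 on the log2 scale. Hbb-bs over Hba-a1 was 0.349, from 0.264 to 0.451, with an SD of 0.19, and Hbb-bs over Hba-a2 had an SD of 0.26. The ratios of Hbb-b1 were less constant. Over Hba-a1, Hbb-b1 had an SD of 0.39, which was no smaller than the spread of its own level. Its ratio to Hbb-bs ran from 1.05 to 2.66 around 1.76, with an SD of 0.32, and its mean log2 ratio was 0.73 in Early SAFit2, 0.74 in Early Vehicle, 1.12 in Late SAFit2 and 0.72 in Late Vehicle. Alas2 over Hba-a1 was 0.0259, from 0.0179 to 0.0448, with an SD of 0.42.

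The levels were also compared with the base composition of the libraries. Hba-a1, whose transcript has 57.2% GC, had r = 0.55 and rho = 0.50 with the GC slope of the library (unadjusted permutation p of r 0.00804, adjusted 0.196 over 25 relations of the genes with library measures). After removal of the group means its r was 0.76, and it was 0.63 in the early and 0.78 in the late batch. Hba-a2, with 56.9% GC, had r = 0.40 overall (rho = 0.31) and 0.61 within groups. Hbb-bs, with 51.3% GC, had r = 0.51 overall (rho = 0.49) and 0.64 within groups. For Alas2, with 53.3% GC, r was 0.13 overall (rho = 0.16) and 0.36 within groups. Hbb-b1 had r = -0.16 overall (rho = -0.16) and -0.075 within groups. None of the 25 relations, each taken over all 22 libraries, passed adjustment. The r within groups and within batches were not tested. The part of base composition in the differences between groups was not tested, and the group medians of the GC slope, highest in Late Vehicle and lowest in Late SAFit2, stand beside them.

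**Figure D4:**
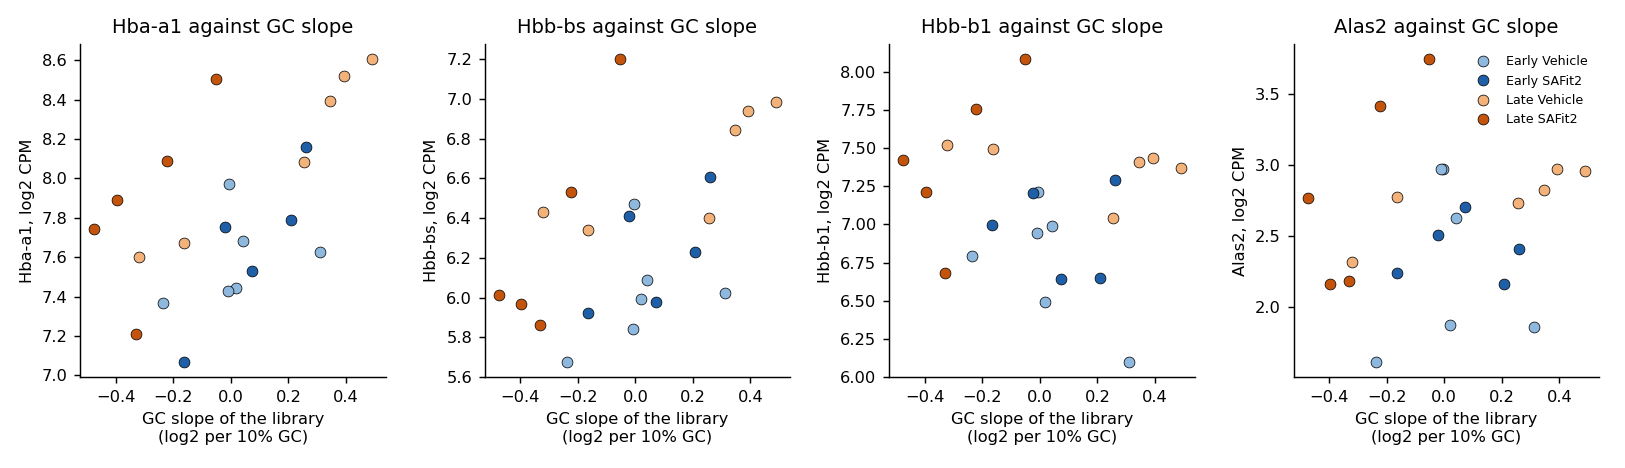
log2 CPM of Hba-a1, Hbb-bs, Hbb-b1 and Alas2 against the GC slope of the library, in log2 CPM per 10% GC, with 1 point per library coloured by group. The points of Hba-a1 give r = 0.55 over 22 libraries and those of Hbb-b1 r = -0.16.

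To ask which other transcripts varied with the globins between libraries of 1 group, each gene was regressed on the globin level, the mean log2 CPM of Hba-a1, Hba-a2 and Hbb-bs, beside the 4 group means. The level was 7.19 ± 0.33 in Early SAFit2, 7.09 ± 0.20 in Early Vehicle, 7.41 ± 0.52 in Late SAFit2 and 7.67 ± 0.36 in Late Vehicle (log2 CPM, SD). Alas2 rose by 0.87 log2 CPM per unit of globin level (SE 0.25, interval 0.35 to 1.39, limma adjusted p = 0.026), and Hbb-b1 by 0.61 (SE 0.17, interval 0.25 to 0.96, adjusted p = 0.0257). These calls stand among many. Of 16762 genes other than the 3 globins, 2428 (14.5%) had a slope at an adjusted p under 0.05, 1417 of them (8.45%) upward, and Alas2 stood at place 1218 and Hbb-b1 at place 1202 by p. The upward genes had a median transcript GC of 57.4% and the downward genes of 41.6%, against 49.7% over all genes. With GC content and length corrected, 1 gene was called, Brinp1 (slope 0.69, adjusted p = 0.0139), and Alas2 had a slope of 0.97 (adjusted p = 0.184). By r of the residuals from group means, Alas2 then stood at place 61 of 16210 (r = 0.647), beside place 672 of 16762 without the correction. With the GC slope of the library as a covariate, the only gene called was Hbb-b1, with a slope of 1.31 (SE 0.14, adjusted p = 1.3e-05), and Alas2 had 1.06 (adjusted p = 0.994). Brinp1 was named after its value was seen. The slope of Alas2 lost its call without Late SAFit2 replicate 1 (0.74, adjusted p = 0.109) or Late Vehicle replicate 6 (0.86, adjusted p = 0.0661). It was also lost with library quality weights (0.94, adjusted p = 0.0789), with library sizes without Bc1 and mitochondrial genes (0.80, adjusted p = 0.137) and with the replicate block (0.92, adjusted p = 0.0859). The slope of Alas2 was 0.69 in the early libraries alone (adjusted p = 0.807) and 0.94 in the late libraries alone (adjusted p = 0.0515). The call of Hbb-b1 was lost without Late SAFit2 replicate 1 (0.49, adjusted p = 0.117) or 2 (0.44, adjusted p = 0.0926), without the variance trend (adjusted p = 0.0560), with library sizes without Bc1 and mitochondrial genes (0.108), with the replicate block (0.0852), and in the early (0.795) or late (0.0549) libraries alone. The count of 2428 itself ranged from 505 without Late Vehicle replicate 6 to 4307 without Late SAFit2 replicate 2.

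None of the 10 genes most like the globin level belonged to the red cell lists. By r of the residuals from group means over 22 libraries, the first were Nxph4 at 0.88, Gps1 at 0.86, Rasgrp2 at 0.85, Chst1, Lrrc24 and Mpped1 at 0.82, Dlg4 (a postsynaptic scaffold), Exoc7 and 2410022M11Rik at 0.81, and Gfod2 at 0.80. These values are a description, and all 10 fell when GC content and length were corrected, to between 0.31 for Gfod2 and 0.70 for 2410022M11Rik. As the 10 were picked by the uncorrected r, a fall under another processing can follow from the choice alone. With the correction the highest r were 0.83 for Kctd16 and 0.81 for Brinp1, both named after their values were seen.

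The other genes of red cells were mostly low or shared with the nervous system. Band 3, Slc4a1, the main anion exchanger of the red cell membrane, had 0 to 18 reads per library and none in 4 of 22. Of 13 membrane genes chosen, 8 were listed and tested, and none was called in any comparison of groups. The most abundant were Ank1 (mean 7.66 log2 CPM), the spectrin gene Sptb (7.64) and Gypc (2.16), of which Ank1 and Sptb are also known from neurons. Ank1 alone followed the globin level (slope 0.63, adjusted p = 0.0360). Among 16 genes of the red cell cytosol and reticulocytes, 12 were tested. Ube2o, a ubiquitin enzyme of reticulocyte maturation, and Tmcc2 fell after late SAFit2 (-0.59 and -0.60), and the mitochondrial iron carrier Slc25a37 was lower in Late than in Early Vehicle (-0.97, adjusted p = 0.000147). With the globin level, Ube2o (0.54) and Tmcc2 (0.58) rose and Bnip3l, a mitophagy receptor, fell (-0.53). Of 6 erythroid factors and receptors, the transferrin receptor Tfrc (6.88), Tal1 (0.89) and the erythropoietin receptor Epor (0.60 log2 CPM) were listed, and none was called. The master factors Gata1 and Klf1 were not among the genes analysed here.

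All 8 enzymes of heme synthesis shared by every cell were tested. Alad, the second enzyme of the path, fell after late SAFit2 (-0.64, adjusted p = 0.0465). In Late against Early Vehicle, Alas1, the housekeeping form of Alas2, rose by 0.39 and Urod by 0.38, and Ppox fell by 1.12 on the log2 scale. Alas1 (0.30), Alad (0.70) and Ppox (0.82) rose with the globin level and Cpox fell (-0.31). Among 9 embryonic and other globins 5 were tested. Cygb, the cytoglobin of fibroblast-like cells and neurons, fell after late SAFit2 (-0.57) and rose with the globin level (0.56), as did Hbq1a (1.86) and the muscle gene Mb (2.07), both with no reads in at least 4 libraries. Of 12 genes for hemoglobin, heme and iron handling, 10 were tested. The ferritin light chain Ftl1 fell after late SAFit2 (-0.56) and rose with the globin level (0.54), the iron exporter Slc40a1 fell with it (-0.56), and transferrin, Trf, was higher in Late Vehicle (0.43).

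Genes of other blood cells mostly had few reads. Of 11 neutrophil genes 8 were tested and none was called, with Mmp9 (2.80), Csf3r (1.42) and Lcn2 (0.44 log2 CPM) the highest. The median late difference of the 8 tested genes was 1.02, beside -0.05 over all genes. Since the filter asks for 5 libraries, the size of Late SAFit2, a low gene can be tested because it is high there. Nothing is therefore read from this median. Of the 11 genes, 8 had no reads in at least 1 library. Their summed level had medians of 15.01 CPM in Early SAFit2 (range 10.7 to 22.6), 16.2 in Early Vehicle (9.37 to 20.6), 24.99 in Late SAFit2 (19.7 to 34.7) and 17.3 in Late Vehicle (13.4 to 24.3). The summed level of the 11 genes was thus highest by its median in Late SAFit2, a difference that was not tested. Over the 22 libraries Mmp9 had 3149 reads and Csf3r 1120, where Camp, Ltf, Retnlg, Mmp8 and Cxcr2 had 56 to 110 each. Mmp9 therefore weighs most in the sum, and the cells that its reads came from were not tested. Of 12 platelet genes 8 were tested. After late SAFit2, Gp1ba rose (1.65) and Itga2b (-1.85) and Gp1bb (-1.12) fell, all at under 100 reads per library, and Itga2b also followed the globin level (1.30). Of 14 lymphocyte genes 4 were tested and none was called, with Ighm (5.85) and Trac (1.66 log2 CPM) the highest. Cd3e was not among the genes analysed here. Ighm had 22865 reads over the 22 libraries, where Igkc, Cd79a and Cd79b of the same list had 124, 88 and 80. The level of Ighm is therefore not read as a sign of lymphocytes.

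Of 13 endothelial genes, all were tested, as vessels carry the blood. Cldn5, a tight junction protein of brain vessels, fell after late SAFit2 (-0.53), Pecam1 (0.48) and the glucose carrier Slc2a1 (0.63) were higher in Late than in Early Vehicle, and none followed the globin level. Of 12 genes of spinal cord cells, Slc32a1, the transporter of inhibitory neurons, fell after late SAFit2 (-0.55), was higher in Late Vehicle (0.59) and rose with the globin level (0.66). Hoxc10 was higher in Late Vehicle (0.29), and the astrocyte channel Aqp4 fell with the globin level (-0.48). Across the lists, 10 of 91 genes tested (11%) were called after late SAFit2, 9 (9.89%) in Late against Early Vehicle and 16 (17.6%) by their slope. These shares stand beside 12.1%, 9.11% and 14.5% over all genes, and nothing particular to the lists is read from them. With GC content and length corrected, 0 of the 10 late calls held, where 0 of 16213 genes were called in all. Of the Vehicle calls 9 of 9 held, where 3012 genes were called in all, and of the slopes 0 of 16, where 1 gene was. The late calls also rested on single libraries. None of the 10 held without Late SAFit2 replicate 2, 4 or 5 or Late Vehicle replicate 1, 3, 4 or 5. By the slope, 4 of 16 held without Late Vehicle replicate 6 and 5 without Late SAFit2 replicate 1 or Late Vehicle replicate 2, and of the Vehicle calls 3 of 9 held without Early Vehicle replicate 5.

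Finally, the late comparison was fitted with the globin level as a covariate. The count of genes called was 1, beside 2021 without the covariate, with 4118 genes at an unadjusted p under 0.05 beside 5791. That gene was Gli2, a transcription factor of hedgehog signalling, lower in SAFit2 (-1.36, SE 0.22, limma adjusted p = 0.0211), and it was named after its value was seen. Neither count was stable, and the alternatives for 2021 stand with the late comparison. With the covariate it was 0 with GC content and length corrected, 24 with limma voom on the reads, 64 with each library centred on its median and 3951 with library quality weights, and leaving out single libraries gave 0 to 2387. Without Late SAFit2 replicate 2 the direction turned, with 1 gene called without the covariate and 2387 with it. With Alas2 in place of the globins as the covariate, 3381 genes were called. The parts of the globin level and of the GC slope of the library in this count were not told apart.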

How the data were processed

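The authors deposited log2 CPM per gene, made per the labels with Trimmomatic, HISAT2 (mm10) and edgeR, with featureCounts per the methods. The extract was prepared with a directional mRNA kit, and the methods name a NextSeq sequencer in one place and a HiSeq in another. The deposited log2 CPM carry a prior count of 2 and TMM scaling, and 100.0% of values returned whole reads within 0.02. Genes of at least -1 log2 CPM in 5 libraries were kept (16765 of 17306) and fitted with limma 3.58.1 in R 4.3.3, with 1 mean per group over all 22 libraries and a variance trend. Calls needed a Benjamini-Hochberg adjusted p under 0.05 and 1.2-fold, or for slopes the p alone. Differences of single genes were also tested by two-sided exact permutation (Python 3.11.15, scipy 1.17.1), and correlations with 100000 resamples. GC content and length came from GENCODE M21, with loess span 0.5, for 16213 tested genes. Hbb-b1 has no GC value there. Sequences are from GENCODE M21 and RefSeq (GRCm38). In data simulated on these libraries, 99% of genes changed by 1 log2 unit late and 96.5% of 200 genes with a slope of 1 were recovered. Other genes called numbered 9 and 7. Only genes with many reads were changed, and the spread of each gene was set by its read number alone. Shared variation in GC content, Bc1 or mitochondrial genes was not simulated. The recovery in the real libraries can therefore be lower. Named genes were the members, the 3 most abundant or called genes of each list, and the 10 most like the globin level. Members and lists were chosen with earlier results of these data known. Depth varied, and counting intervals cover counting error only. The alternatives were filters, prior counts, scaling, weights, voom, GC correction, a replicate block and leaving out each library; those with the GC slope of the library, and several for the globin covariate, were chosen after seeing the data.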

Additional observations from a re-analysis of the deposited data

Results flagged for a closer look

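In groups of 5 or 6 libraries, the gap between the highest or lowest library and the nearest of the others was compared with the range of the group (Dixon's criterion, which chance meets in about 1 of 20 groups). Of 72 groups tested, 5 met it. Alas2 in Late Vehicle replicate 6 was 2.32 log2 CPM, with the other 5 libraries between 2.73 and 2.97. Hbb-b1 in Late Vehicle replicate 4 was 7.04 log2 CPM, with the others between 7.37 and 7.52. The share of reads on Bc1 was 11.9% in Early Vehicle replicate 4, where the others had 0.942 to 4.28%. It was 7.55% in Late Vehicle replicate 6, the library low in Alas2, where the others had 1.32 to 3.43%. The mitochondrially encoded genes took 18.3% of reads in Early Vehicle replicate 5, with the others between 7.18 and 10.1%. The part of these library shares in the globin values was not tested.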

How the results depend on the processing

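Between Late and Early Vehicle, 1 of the 4 listed genes was called. The number was 0 without the variance trend and with quantile normalization, 2 with only the libraries of the pair, and 0 to 3 when single libraries were left out. It was 3 with library quality weights, median centring, GC and length correction, and that correction with the replicate block. Of 16765 genes in all, 1527 were called as first fitted, 1360 without the variance trend and 1164 with quantile normalization. The same count was 2014 with median centring and 5067 with weights. With GC and length correction 3012 of 16213 genes were called, and 2912 with the block added. Nothing particular to the listed genes is read from these numbers. After late SAFit2, leaving out single libraries gave 0 to 1.

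Early differences turned in sign with library quality weights for Hba-a1 (-0.024) and Hba-a2 (-0.027). That of Hba-a2 also turned with library sizes without Bc1 and mitochondrial genes (-0.023), with the replicate block (-0.0096) and with the GC slope of the library as covariate (-0.024). Late differences turned with GC and length correction for Hba-a1 (0.058), Hba-a2 (0.086) and Slc32a1 (0.13), and with the block added (0.038, 0.069 and 0.12), where Cldn5 also turned (0.011). With the GC slope as covariate the late values were 0.35 for Hba-a1, 0.29 for Hba-a2, 0.13 for Hbb-bs, -0.0039 for Hbb-b1, 0.024 for Ftl1, 0.064 for Slc32a1, 0.0058 for Tmcc2 and 0.014 for Ube2o, and with quantile normalization that of Hbb-b1 was -0.0043. The mean SAFit2 effect turned with GC and length correction for Hba-a1 (0.093), Hba-a2 (0.088) and Hbb-bs (0.0026), with the block added for Hba-a1 (0.073) and Hba-a2 (0.071), and with the GC slope (0.18, 0.13 and 0.15). The late minus early effect turned with the GC slope for Hba-a1 (0.35) and Hba-a2 (0.32), and for Hbb-b1 with weights (0.12) and without Bc1 and mitochondrial genes (0.067). Slopes on the globin level turned with the GC slope for Ftl1 (-0.016) and Ube2o (-0.077). None of these reversals was of a called member, and the cause was not tested.

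When single libraries were left out, the sign turned within these ranges: early Hba-a1 -0.052 to 0.22, Hba-a2 -0.095 to 0.13 and Alas2 -0.055 to 0.22. Late Hba-a2 ran from -0.34 to 0.053, Alas2 from -0.13 to 0.27 and Hbb-b1 from -0.11 to 0.24. For the mean effect Hba-a2 ran from -0.16 to 0.041 and Alas2 from -0.021 to 0.18, and for late minus early Hba-a2 from -0.37 to 0.025, Alas2 from -0.21 to 0.18 and Hbb-b1 from -0.31 to 0.037.

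The count of genes following the globin level, 2428, was 1495 without the variance trend, 7 with weights, 738 with median centring, 2 (Cd24a and Nxph4) without Bc1 and mitochondrial genes, 23 with the replicate block, 1 with GC and length correction, 1 with the GC slope, 0 in the early and 793 in the late libraries alone, and 505 to 4307 leaving out single libraries. The count of late calls with the globin covariate, 1, was 3951 with weights, 64 with median centring, 2730 without Bc1 and mitochondrial genes, 24 with voom, 675 with the alpha globins alone, 3381 with Alas2, 0 with the block, with GC and length correction and with the GC slope, and 0 to 2387 leaving out single libraries.

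Whether replicate numbers pair mice, for example by cage, is not given in the sources used here. Of 10 same-numbered pairs within a timing, 2 had correlated deviations over 0.1 (r from -0.236 to 0.317). Differently numbered pairs were not set beside them, so these values cannot decide it. With the replicate block, 46 of 69 values stayed on the same side of the threshold with the same sign, 20 lost a call and 1 turned. Hbb-b1 lost its call between Vehicle groups (0.62, adjusted p = 0.0538). Alas2 (0.92, adjusted p = 0.0859) and Hbb-b1 (0.68, adjusted p = 0.0852) lost that of their slopes. Library sizes without Bc1 and mitochondrial genes moved the late median of all genes from -0.05 to 0.11. The depth of 39 to 240 reads limits Alas2. Over all alternatives other than leaving out a library, 744 values of single genes or pairs kept their direction and side of the threshold, 228 lost a call and 9 gained one. A further 35 turned in sign and 10 moved. Values that were never called count as kept when their sign stayed.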
